A study of Mus musculus with 12 samples.

Results

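The 48 genes described here are those whose mouse symbol begins with Nduf, taken from the 27179 genes of the count table by matching its NCBI Gene IDs to symbols and leaving out 3 rows annotated as pseudogenes. They hold 36 nuclear genes for subunits of complex I, 8 genes for its assembly factors (Ndufaf), and 2 copies of Ndufb4 that are annotated as protein-coding (Ndufb4b and Ndufb4c). A further pair is named after complex I but counted apart from its subunits here. These are Ndufa4, since assigned to complex IV, and its paralog Ndufa4l2. No row matched the symbol Ndufb1, which was therefore not analysed. All 48 genes passed the filter on low counts.

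Complex I (NADH:ubiquinone oxidoreductase) takes electrons from NADH, passes them along a chain of iron-sulfur clusters to ubiquinone and pumps protons across the mitochondrial inner membrane. The N module binds NADH and the Q module reduces ubiquinone, and both sit in an arm that projects into the matrix. The proton pumps of the membrane arm are encoded by mitochondrial DNA, whereas the core subunits of the matrix arm and all accessory subunits are encoded in the nucleus. Assembly factors build the modules or modify their subunits and are absent from the finished enzyme. Skeletal muscle uses the complex to make ATP during sustained contraction.

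The samples were tibialis anterior (TA) muscles of male wild-type C57BL/6N mice, harvested 7 days after electroporation with 10 μg of plasmid. In the Control group (n = 6) the plasmid was empty pcDNA3, and in the *FRAIL1* group (n = 6) it carried full-length *FRAIL1*, a human long noncoding RNA, behind the cytomegalovirus promoter. Per the study's methods each mouse received both plasmids, in opposite legs, and muscles with the same number are treated here as those of 1 mouse, which the labels do not state. The labels give no age, whereas the study's methods state one, in weeks, for when the mice were obtained. The model is limited by its design: mice have no *FRAIL1* of their own, the promoter is viral and active in many cell types, electroporation brings plasmid into part of the fibers, and both groups were injected and electroporated with no untouched muscle for comparison. Whole muscle was sequenced, so fewer fibers and less mRNA per fiber cannot be told apart. The comparison asks whether forced *FRAIL1* expression changed the mRNA levels of the nuclear part of complex I.

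Total counts ranged from 44848322 to 60527385 per muscle, and the 48 genes took 0.694% to 0.804% of them. Levels are given as CPM, counts scaled to a common library size after TMM normalization, and each ± is an SD over 6 muscles. The *FRAIL1* muscle numbered 5 stood apart from the others: its TMM factor was 1.19 where the other 11 muscles were between 0.935 and 1.07, and it lay at 59.5 on the first principal component, where the other *FRAIL1* muscles reached at most 25.8. The log2 differences of Nduf genes described by name are also given without both muscles numbered 5 where they moved by over 1.5 times. Myofiber mRNAs such as Ckm and Acta1 were abundant in every muscle, and the transcript of the plasmid itself was not analysed here.

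The start regions of the genes are described first. The subunit mRNAs were high and low in the same muscles, as shown further on, and any part of the start regions in this was not tested. RefSeq windows of 300 bases (250 before and 50 after the annotated start, build GRCm38.p6) were found for 41 of the 48 genes and searched on both strands for the letters of 4 motifs. The start used for a window can lie inside the gene as placed further on. The last bases printed below for Ndufa3 and Ndufaf1 therefore fall within those genes. The letters AAGATGGCG, the core of the YY1 motif, stood in the windows of 6 of 41 genes (14.6%), against 2.86% of the 11778 windows of genes tested and 1.49% of all 27025 windows. All 6 matches lay after the start, on the strand of the gene. The letters contain ATG, and whether this is the start codon of these genes was not analysed. Coding sequence and motif are therefore not told apart here. They are Ndufa9, Ndufs4, Ndufs6, Ndufs7, Ndufc1 and Ndufaf8, and the bases around each match follow with the match in capitals. They are shown because these letters were the motif whose share in the Nduf windows lay farthest above that of genes tested.
Ndufa9 (chr6:126849097-126849125, minus strand): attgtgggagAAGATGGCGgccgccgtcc
Ndufs4 (chr13:114388045-114388069, minus strand): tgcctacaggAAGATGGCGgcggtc
Ndufs6 (chr13:73328433-73328459, minus strand): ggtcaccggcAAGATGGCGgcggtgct
Ndufs7 (chr10:80249463-80249491, plus strand): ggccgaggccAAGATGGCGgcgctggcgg
Ndufc1 (chr3:51408915-51408943, minus strand): cctgcggaacAAGATGGCGccgtccgtag
Ndufaf8 (chr11:120098934-120098962, plus strand): ggcagggcccAAGATGGCGgcgccctcga
The letters GCATGCGC of the NRF1 motif were in 5 of 41 windows (12.2%, against 4.97% of genes tested), those of Ndufa6, Ndufa8, Ndufa11, Ndufaf4 and Ndufaf5. They read nearly alike on both strands, so matches on opposite strands overlap in Ndufa11, Ndufaf4 and Ndufaf5. The letters CCGGAAG of the GABPA motif were in 6 windows (14.6%, against 16.4% of genes tested) and AAGGTCA of the ESRRA motif in 3 (7.32%, against 3.17%). The match of Ndufaf5, the one gene that passed the test with a mouse block below, is printed first. The 250 bases before the start of 3 genes follow: the assembly factor Ndufaf4, with NRF1 letters in capitals, the assembly factor Ndufaf1, with GABPA letters in capitals, and Ndufa3, the subunit with the lowest fold change, in which none of these letters was found.
Ndufaf5 (chr2:140170653-140170680, plus strand): gtcccgttgGCGCATGCGCctaatagaa
Ndufaf4 (chr4:24897833-24898082, plus strand): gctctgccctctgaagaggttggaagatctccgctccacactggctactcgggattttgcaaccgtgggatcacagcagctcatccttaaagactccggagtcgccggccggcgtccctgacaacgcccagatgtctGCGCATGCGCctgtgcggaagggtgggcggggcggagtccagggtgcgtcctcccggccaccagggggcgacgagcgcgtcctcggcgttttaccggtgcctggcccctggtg
Ndufaf1 (chr2:119662835-119663084, minus strand): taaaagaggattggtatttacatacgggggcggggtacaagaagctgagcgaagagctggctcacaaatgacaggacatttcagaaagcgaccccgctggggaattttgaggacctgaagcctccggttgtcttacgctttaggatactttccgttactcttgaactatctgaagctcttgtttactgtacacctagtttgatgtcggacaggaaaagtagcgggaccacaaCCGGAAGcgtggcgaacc
Ndufa3 (chr7:3617123-3617372, plus strand): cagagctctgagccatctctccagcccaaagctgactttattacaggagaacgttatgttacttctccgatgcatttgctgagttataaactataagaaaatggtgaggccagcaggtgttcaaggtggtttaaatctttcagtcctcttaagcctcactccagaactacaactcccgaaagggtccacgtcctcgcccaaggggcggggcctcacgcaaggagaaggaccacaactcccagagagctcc
Of the 41 genes, 12 (29.3%) start within 1000 bases of a gene on the opposite strand that runs the other way, against 17.1% of genes tested. Of the 12 neighbours 11 were tested, and none passed adjusted p of 0.05 in edgeR's quasi-likelihood test, nor did any of the 48 genes. With the mouse as a block 1 neighbour passed, Asb15 beside Ndufa5, with a log2 difference of -0.42 (adjusted p = 0.0137). A match of letters is a description of the window, and binding was not measured.

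No Nduf gene passed the test between *FRAIL1* and Control muscles. With edgeR's quasi-likelihood test and Benjamini-Hochberg adjustment, 0 of 48 had an adjusted p below 0.05, whereas 6.28% of the 15502 genes tested did (974 genes, 287 lower and 687 higher). At an unadjusted p below 0.05, 11 of the 48 were lower (22.9%, against 12.5% of genes tested) and 1 was higher (2.08%, against 15.2%). The 11 became 3 without both muscles numbered 5, and leaving out a single muscle gave 5 (without Control 5), 7 (without Control 2, Control 6 or *FRAIL1* 5), 18 (without *FRAIL1* 3) or 8 to 11 (without any other). The groups overlapped for all 48 genes, whereas 4.88% of genes tested had groups that did not. With the mouse number as a block, 1 of 48 passed (Ndufaf5, lower), against 6.62% of genes lower. With DESeq2, 1 of 48 passed without the block (Ndufa4, lower, against 6.39%) and 2 with it (Ndufaf5 and Ndufb4c, both lower, against 9.94%).

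The estimates were nevertheless narrow. The median standard error of the log2 fold change was 0.08 over the 48 genes and 0.11 over all genes tested, and the 95% confidence interval lay between -0.5 and 0.5 on the log2 scale for 46 of 48. The exceptions were Ndufa3 and Ndufb4c, whose lower bounds were -0.52 and -0.54. The fold change was below 0 in 41 of 48 genes (85.4%, against 48.4% of genes tested), and in 35 without both muscles numbered 5. The genes moved together within a mouse, as shown further on, so these are not independent signs. The median log2 fold change was -0.10 over the 36 subunits and -0.07 over the 8 assembly factors, while the median of all genes tested was 0.01. Without both muscles numbered 5 these medians were -0.05 and -0.03.

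**Figure D1:**
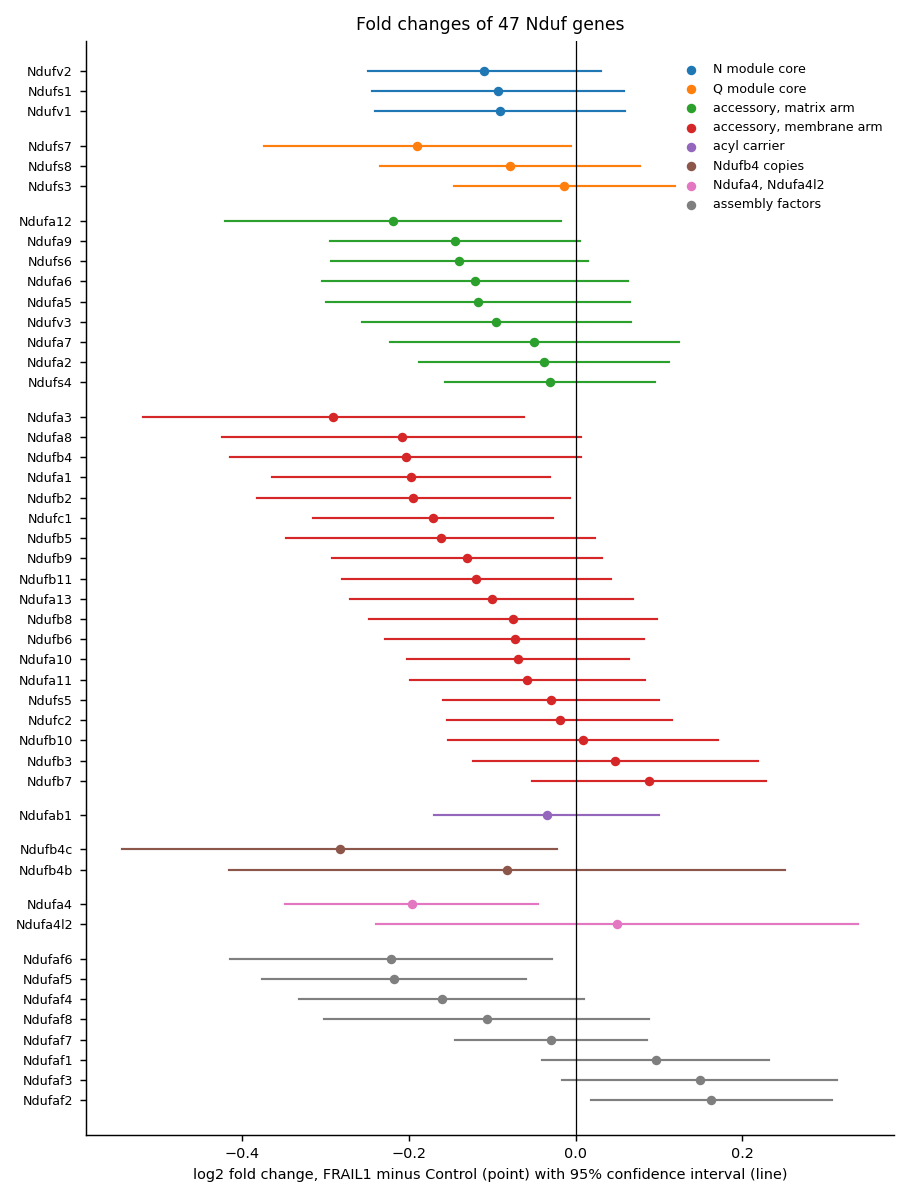
Log2 fold change of 47 Nduf genes, *FRAIL1* minus Control (horizontal axis; point, estimate; line, 95% confidence interval; n = 6 muscles per group), with genes grouped and coloured by role. Of the 35 subunits drawn 32 lie left of 0, whereas the 8 assembly factors spread from -0.22 (Ndufaf6) to 0.16 (Ndufaf2).

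The 3 core subunits of the N module were alike in size and direction of their difference, and none of them passed the test. Ndufv1 (chromosome 19, 4007499 to 4012755 in GRCm38, as for all positions here), which binds NADH and the flavin, ranged from 407 to 505 CPM (median 447) in Control and from 385 to 463 CPM (median 424) in *FRAIL1* muscles. Its means were 452 ± 34.0 CPM in Control and 425 ± 32.9 CPM in *FRAIL1* muscles, a log2 difference of -0.09 ± 0.07 (SE) (adjusted p = 0.425) that was -0.05 without both muscles numbered 5. Ndufv2 (chromosome 17, 66078795 to 66101559), which carries an iron-sulfur cluster next to the flavin, ranged from 321 to 368 CPM (median 343) against 280.4 to 360.1 CPM (median 318), a log2 difference of -0.11 ± 0.07 (SE) (adjusted p = 0.295). The muscles overlapped for both genes, and for both the lowest muscle was *FRAIL1* 5 and the highest Control 6. Ndufs1 (chromosome 1, 63143592 to 63176822), the largest subunit of the matrix arm, ranged from 405 to 481 CPM (median 439.6) in Control and from 362 to 465 CPM (median 417) in *FRAIL1* muscles. In all 6 mice the *FRAIL1* muscle had less Ndufs1, a log2 difference of -0.09 ± 0.07 (SE) (adjusted p = 0.415, and 0.279 with the mouse as a block).

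Of the core subunits of the Q module, Ndufs7 and Ndufs8 had lower means in *FRAIL1* muscles and Ndufs3 had nearly equal means. Ndufs7 (chromosome 10, 80249105 to 80256794), whose cluster hands the electrons to ubiquinone, ranged from 321 to 424 CPM (median 365) against 258 to 366 CPM (median 334). Its log2 difference was -0.19 ± 0.09 (SE) (adjusted p = 0.171), and 4 of 6 mice were lower. Ndufs8 (chromosome 19, 3908863 to 3912774), which also carries iron-sulfur clusters, differed by -0.08 ± 0.07 (SE) (adjusted p = 0.515). Ndufs3 (chromosome 2, 90894627 to 90904721), the core subunit of the module without a cluster of its own, ranged from 203 to 236 CPM (median 218) against 192 to 236 CPM (median 214), and its interval from -0.15 to 0.12 on the log2 scale was centred near 0. Without both muscles numbered 5 the log2 differences were -0.12 for Ndufs7, -0.02 for Ndufs8 and 0.0043 for Ndufs3.

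**Figure D2:**
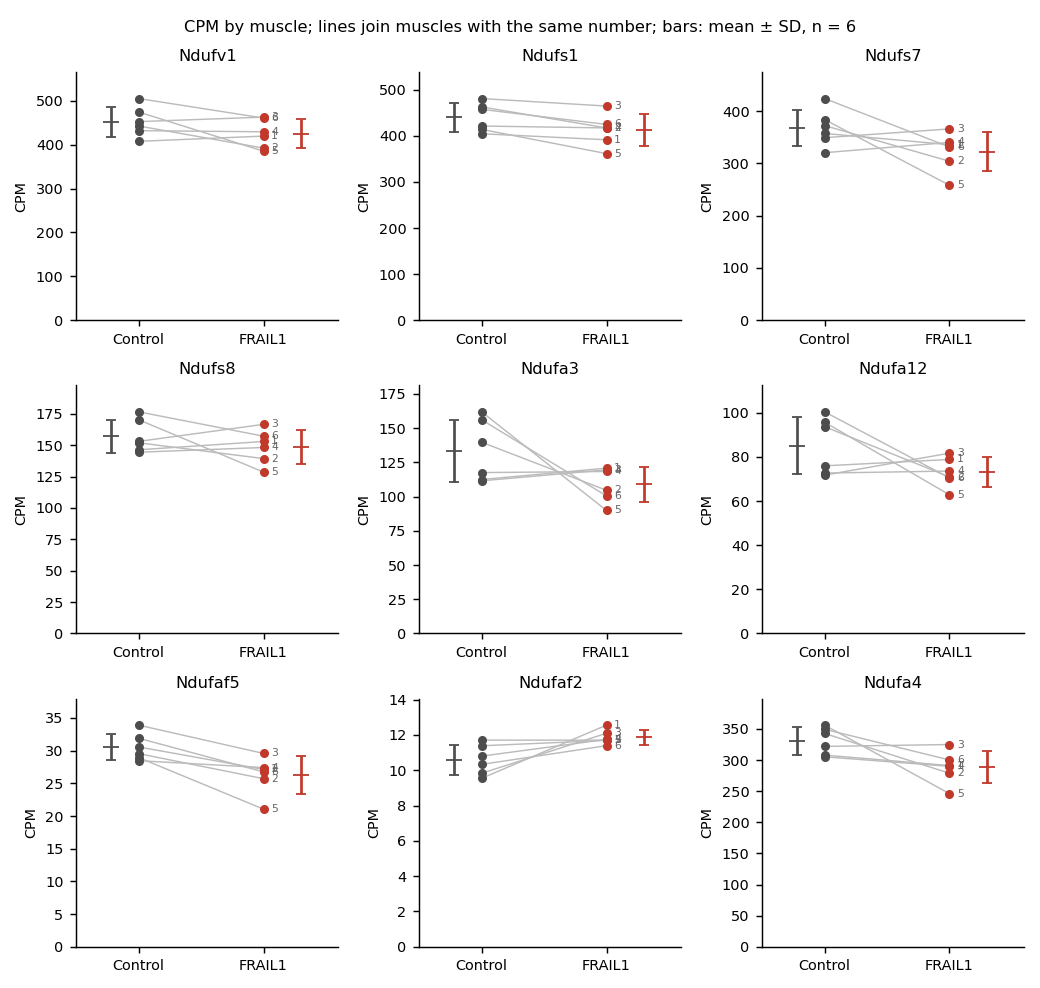
CPM (vertical axis, starting at 0) in each Control and *FRAIL1* muscle for 9 Nduf genes; each point is 1 muscle, grey lines join muscles with the same number, and the bars give mean ± SD (n = 6). The *FRAIL1* muscle numbered 5 is the lowest point for the core subunits shown, Ndufa3, Ndufa12, Ndufaf5 and Ndufa4, while Ndufaf2 is tight in *FRAIL1* muscles at 11.4 to 12.6 CPM.

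The 9 accessory subunits of the matrix arm all had lower means in *FRAIL1* muscles, with log2 differences from -0.22 to -0.03, and none passed the test. The farthest from 0 was Ndufa12 (chromosome 10, 94199035 to 94221440), which joins the complex late, in the place held before by its paralog Ndufaf2. It ranged from 71.7 to 100.4 CPM (median 84.8) in Control and from 62.8 to 81.7 CPM (median 72.3) in *FRAIL1* muscles, a log2 difference of -0.22 ± 0.09 (SE) (adjusted p = 0.148). Its Control muscles lay far apart, SD 12.9 CPM against 6.70 in *FRAIL1* muscles, and only 3 of 6 mice were lower. A transcript elsewhere in the genome, Gm15920, shares 402 bases with Ndufa12 at 99.5% identity, so its level from uniquely mapped reads is uncertain. Ndufv3 (chromosome 17, 31520115 to 31531326), a small N module subunit with a long and a short isoform, ranged from 91.8 to 119.9 CPM (median 107) against 90.1 to 109 CPM (median 101), a log2 difference of -0.09 ± 0.08 (SE) (adjusted p = 0.437). Ndufs4 and Ndufs6, which are added with the N module, were at 125 ± 7.71 CPM in Control and 122 ± 7.07 CPM in *FRAIL1* muscles and at 146 ± 11.4 CPM in Control and 132 ± 12.3 CPM in *FRAIL1* muscles, with adjusted p of 0.774 and 0.224. Without both muscles numbered 5 the log2 differences were -0.15 for Ndufa12, -0.03 for Ndufv3 and -0.08 for Ndufs6, and that of Ndufs4 changed sign, from -0.03 to 0.01.

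Among the 19 accessory subunits of the membrane arm, 16 means were lower and 3 were higher, and none passed the test. The lowest fold changes were those of Ndufa3, Ndufa8 and Ndufb4. Ndufa3 (chromosome 7, 3617347 to 3620165), a small protein of the membrane arm next to the matrix arm, ranged from 112 to 162 CPM (median 129) in Control and from 89.9 to 121 CPM (median 111) in *FRAIL1* muscles. Its log2 difference of -0.29 ± 0.11 (SE) had a 95% interval from -0.52 to -0.06 (adjusted p = 0.101), and without both muscles numbered 5 it was -0.18. The mice lower with *FRAIL1* were those numbered 2, 5 and 6. Ndufa8 (chromosome 2, 36036324 to 36049338), which faces the intermembrane space, ranged from 13.9 to 20.5 CPM (median 15.5) against 11.9 to 15.8 CPM (median 13.5), a log2 difference of -0.21 ± 0.10 (SE) (adjusted p = 0.193). Without Control 6, its highest muscle, the difference was -0.12. In CPM it was the scarcest of the 36 subunit mRNAs in Control muscles.

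Ndufb4 (chromosome 16, 37647602 to 37654368), a subunit of the far membrane arm, was at 17.6 ± 1.08 CPM in Control and 15.2 ± 2.56 CPM in *FRAIL1* muscles, a log2 difference of -0.20 ± 0.10 (SE) (adjusted p = 0.194). Its copy Ndufb4c (chromosome 15, 73809449 to 73809933) carries 390 bases of identical sequence, so reads from that stretch map to both and would not be counted as unique. Both values are therefore uncertain. Ndufb4c ranged from 10.1 to 12.8 CPM (median 10.7) in Control and from 5.87 to 10.6 CPM (median 9.59) in *FRAIL1* muscles, and every one of the 6 mice was lower, a log2 difference of -0.28 ± 0.12 (SE). That passed with DESeq2 and a mouse block (adjusted p = 0.0383) but not in edgeR's quasi-likelihood test without a block (adjusted p = 0.149) or with it (adjusted p = 0.0649), and without both muscles numbered 5 the difference was -0.20. The other copy, Ndufb4b (chromosome 19, 25033108 to 25033578), was scarce at 1.72 ± 0.191 CPM in Control and 1.62 ± 0.291 CPM in *FRAIL1* muscles (adjusted p = 0.770).

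At the other end of the membrane arm genes were Ndufb7, Ndufb3, Ndufb10 and Ndufc2, the accessory subunits with the highest fold changes. Ndufb7 (chromosome 8, 83566758 to 83571623), a subunit of the intermembrane space face, ranged from 131 to 160.2 CPM (median 141) in Control and from 138 to 163 CPM (median 154) in *FRAIL1* muscles, a log2 difference of 0.09 ± 0.07 (SE) (adjusted p = 0.402). Ndufb3 (chromosome 1, 58586397 to 58595964) was at 119 ± 14.7 CPM in Control and 123 ± 9.53 CPM in *FRAIL1* muscles, and Ndufb10 (chromosome 17, 24722060 to 24724423), which like Ndufb7 is held by disulfide bonds, at 278 ± 28.9 CPM in Control and 280.1 ± 19.8 CPM in *FRAIL1* muscles. Their 95% intervals ran from -0.12 to 0.22 and from -0.15 to 0.17 on the log2 scale, and without both muscles numbered 5 the difference of Ndufb10 went from 0.01 to 0.05. Ndufc2 (chromosome 7, 97400003 to 97407800) ranged from 129 to 153 CPM (median 137) against 124 to 151 CPM (median 135) and its estimate changed sign without both muscles numbered 5 (-0.02 and 0.02). The acyl carrier protein Ndufab1 (chromosome 7, 122086815 to 122101848), which serves fatty acid synthesis and iron-sulfur cluster making besides complex I, was at 54.3 ± 4.72 CPM in Control and 53.1 ± 2.78 CPM in *FRAIL1* muscles, a log2 difference of -0.03 ± 0.06 (SE) (adjusted p = 0.761) that was -0.0043 without both muscles numbered 5.

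Ndufa4 (chromosome 6, 11900372 to 11907450), first purified with complex I and since assigned to complex IV, had the lowest adjusted p of the genes that are not assembly factors. It ranged from 305 to 356 CPM (median 332) in Control and from 246 to 325 CPM (median 291) in *FRAIL1* muscles, with 5 of 6 mice lower and the mouse numbered 3 nearly level. The log2 difference was -0.20 ± 0.07 (SE), with a 95% interval from -0.35 to -0.04, an adjusted p of 0.0956 in edgeR's quasi-likelihood test and of 0.0391 in the Wald test of DESeq2. Without both muscles numbered 5 it was -0.13. The DESeq2 call was lost with the mouse as a block (adjusted p = 0.0511). Over its 23 alternatives the adjusted p lay between 0.0391 and 0.191, under 0.05 in 2. Its paralog Ndufa4l2 (chromosome 10, 127509274 to 127517154), known for its induction by low oxygen, was scarce and variable, from 6.76 to 10.4 CPM (median 8.36) against 6.39 to 10.7 CPM (median 8.92), and its interval from -0.24 to 0.34 on the log2 scale was the widest of the 48 after that of Ndufb4b. Its difference was 0.05, and 0.03 without both muscles numbered 5.

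The assembly factors did not share a direction, with 5 means lower and 3 higher in *FRAIL1* muscles. Ndufaf5 (chromosome 2, 140170584 to 140218965), which hydroxylates an arginine of Ndufs7, had less mRNA in the *FRAIL1* muscle of all 6 mice. Its Control muscles ranged from 28.5 to 33.9 CPM (median 30.1) and its *FRAIL1* muscles from 21.1 to 29.6 CPM (median 26.9). The log2 difference of -0.22 ± 0.07 (SE) had an adjusted p of 0.0806 in edgeR's quasi-likelihood test, and of 0.0310 with the mouse as a block. With the block and without both muscles numbered 5 the difference was -0.18 and the adjusted p 0.0301. Over its 23 alternatives the adjusted p lay between 0.0206 and 0.164, under 0.05 in 4. The groups nevertheless overlapped, since the highest *FRAIL1* muscle, numbered 3, exceeded the lowest Control muscle.

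Ndufaf8 (chromosome 11, 120098934 to 120100424), the partner that stabilises Ndufaf5, ranged from 11.4 to 14.4 CPM (median 12.4) against 9.72 to 12.9 CPM (median 12.4), a log2 difference of -0.11 ± 0.09 (SE) (adjusted p = 0.473) that was -0.02 without both muscles numbered 5. Ndufaf6 (chromosome 4, 11048991 to 11076237), needed early in assembly, was at 20.6 ± 2.89 CPM in Control and 17.7 ± 1.51 CPM in *FRAIL1* muscles, a log2 difference of -0.22 ± 0.09 (SE) (adjusted p = 0.131), with 4 of 6 mice lower. Ndufaf4 (chromosome 4, 24898083 to 24905001), which works with Ndufaf3 on the Q module, ranged from 42.4 to 53.7 CPM (median 47.5) against 35.8 to 49.4 CPM (median 43.7), a log2 difference of -0.16 ± 0.08 (SE) (adjusted p = 0.207). Its partner Ndufaf3 (chromosome 9, 108565587 to 108567436) had the opposite sign: it ranged from 11.8 to 14.2 CPM (median 12.02) against 12.04 to 16.2 CPM (median 13.4), a log2 difference of 0.15 ± 0.08 (SE) (adjusted p = 0.224), with 5 of 6 mice higher. Whether the difference between these partners exceeds their errors was not tested.

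Ndufaf2 (chromosome 13, 108052589 to 108158652), a chaperone that holds the place of its paralog Ndufa12 until the N module is in, was the 1 gene higher at an unadjusted p below 0.05. It ranged from 9.54 to 11.7 CPM (median 10.6) in Control and from 11.4 to 12.6 CPM (median 11.7) in *FRAIL1* muscles, with 5 of 6 mice higher. The log2 difference of 0.16 ± 0.07 (SE) had a 95% interval from 0.02 to 0.31 (adjusted p = 0.137). An antisense transcript, B230220B15Rik, covers 65.6% of the annotated exon bases of Ndufaf2, and the strand setting of the counting is not given in the sources used here, so the reads of the 2 may not be told apart. Ndufaf1 (chromosome 2, 119655446 to 119662839), a member of the complex that builds part of the membrane arm, ranged from 39.3 to 48.6 CPM (median 45.1) against 43.5 to 50.8 CPM (median 47.2), a log2 difference of 0.10 ± 0.06 (SE) (adjusted p = 0.345) that was 0.04 without both muscles numbered 5. Ndufaf7 (chromosome 17, 78937106 to 78948052), an arginine methyltransferase, was the steadiest, at 21.9 ± 0.808 CPM in Control and 21.5 ± 1.24 CPM in *FRAIL1* muscles with an interval from -0.14 to 0.09 on the log2 scale.

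The direction of the subunits differed between mice. All 36 subunits were lower in the *FRAIL1* muscle of mice 2 and 5, and 35 of 36 in mouse 6, with median log2 ratios of -0.18, -0.41 and -0.15. In mouse 1, 25 of 36 were higher, in mouse 3, 31, and in mouse 4, 28, with medians of 0.04, 0.10 and 0.04. Of the 3 core subunits of the N module, 2 were lower in mouse 1 and all 3 in mouse 4, with medians of only -0.05 and -0.01. This was not particular to the N module. Ndufs3 and Ndufs7 of the Q module were also lower in mouse 1, whereas Ndufs8 was higher. Of all subunits with transcripts of 1000 bases or more, 42.9% were lower in each of these mice. The signs of all 6 medians were the same with DESeq2 size factors and with upper-quartile scaling, and between 48.1% and 51.3% of all genes tested were lower in each mouse. The assembly factors were split in every mouse, between 3 and 6 of 8 lower, with medians from -0.16 (mouse 5) to 0.04 (mouse 3). The SD over mice was 0.19 for the subunit median and 0.08 for the assembly factor median. By muscle, 29 of 36 subunits were lowest in *FRAIL1* 5, and 32 were highest in Control 6 (22) or Control 5 (10).

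**Figure D3:**
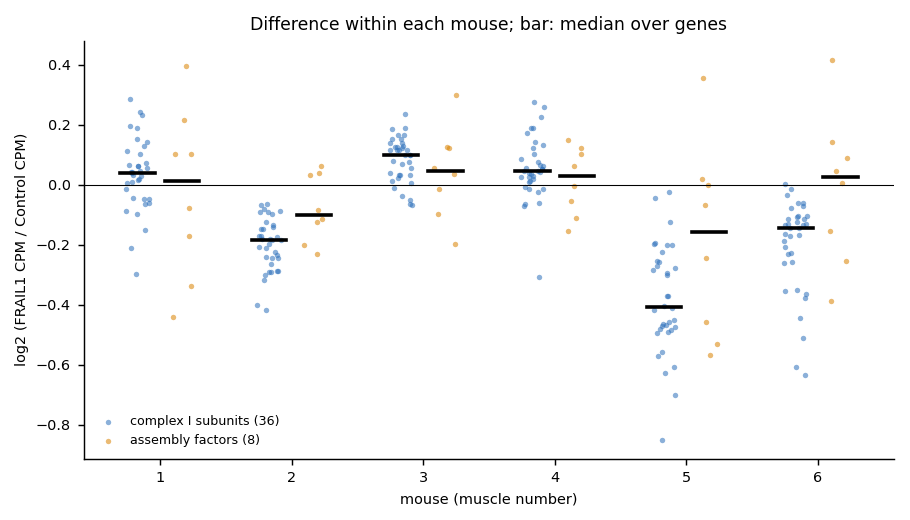
Log2 ratio of *FRAIL1* to Control CPM (vertical axis) within each of the 6 mice (horizontal axis, the muscle number); each point is 1 gene, blue for the 36 subunits and orange for the 8 assembly factors, and black bars are medians over genes. Subunit medians run from -0.41 in mouse 5 to 0.10 in mouse 3, and assembly factors scatter on both sides of 0 in each mouse.

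Transcript length moved with this pattern, and its part in it was not tested. Over the 850 tested genes with transcripts under 1000 bases, the median log2 ratio was 0.10 in each of mice 1, 3 and 4, -0.04 in mouse 2, -0.07 in mouse 5 and -0.01 in mouse 6. Over the 13347 longer genes it stayed between -0.01 and 0.02. The 22 subunits under 1000 bases had medians of 0.05, -0.18, 0.12, 0.05, -0.43 and -0.16 in mice 1 to 6, and the 14 longer subunits of 0.01, -0.19, 0.03, 0.02, -0.34 and -0.14. The group medians of short and long subunits were both -0.10 on the log2 scale. These length classes were set after the values were seen.

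Summed over the 36 subunits, CPM were 6764, 7293, 7067, 6670, 7642 and 7912 in Control muscles 1 to 6 and 6858, 6353, 7369, 6871, 5906 and 6983 in *FRAIL1* muscles 1 to 6. The sums of the 2 groups overlapped, with means of 7225 ± 489 and 6723 ± 515. The assembly factor sums, from 194 to 209 in Control and from 179 to 207 in *FRAIL1* muscles, were steadier, with means of 201 ± 5.77 and 193 ± 9.77. Gene by gene the spread was alike. The median SD of log2 CPM (0.5 added) was 0.12 in Control and 0.13 in *FRAIL1* muscles, for subunits and for assembly factors.

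Compared per length, as Control CPM per kilobase of the principal transcript, assembly factor mRNAs were scarcer than nearly all subunit mRNAs. The 36 subunits had a median of 177, with Ndufb4 lowest at 18.1, and the 8 assembly factors had a median of 15.9 and ranged from 8.30 (Ndufaf3) to 30.6 (Ndufaf1). Thus 33 of 36 subunits lay above every assembly factor, and the exceptions were Ndufb4, Ndufa8 and Ndufab1 at 18.1, 18.5 and 22.2. Ndufb4 and Ndufab1 have copies elsewhere, and reads that fit both places were not counted. Ndufa4 stood above all subunits at 623 ± 41.2. Among the highest subunits were Ndufb8 (508 ± 43.1), Ndufb9 (452 ± 37.4), Ndufs7 (423 ± 40.3) and Ndufb10 (380 ± 39.5), whose Control muscles overlapped from each gene to the next. In the whole order of 46 genes, only 7 of 45 neighbouring pairs had Control muscles that did not overlap.

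Some further genes share sequence or exons. Transcripts of 6 genes matched a stretch of at least 100 bases elsewhere at 98% identity or more: Ndufa12, Ndufab1, Ndufb4, Ndufc1, Ndufs3 and Ndufs5. Exons of 19 genes overlapped those of another gene, among them Ndufa13 with Tssk6 (30.0% of its exon bases) and Ndufb6 with Smim27 (39.0%). Tssk6 and Smim27 were below 1 CPM in both groups.

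Of 10 other assembly genes (Acad9, Ecsit, Timmdc1, Tmem126a, Tmem126b, Tmem186, Tmem70, Foxred1, Nubpl and Dmac1), 7 had lower means and 3 higher, with a median log2 difference of -0.11, and none passed adjusted p of 0.05 in edgeR's quasi-likelihood test with or without the block, or with DESeq2. At an unadjusted p under 0.05 there were 3 lower and 1 higher. The lists here were chosen with earlier results of these data known. The 7 Nd mRNAs of mitochondrial DNA all had lower means, with a median of -0.45. None of the 7 passed without the block, although all 7 had an unadjusted p under 0.05, and 5 were lower with the block and 4 with DESeq2. With the block mt-Nd3 and mt-Nd4l did not pass. These were scarce, with Control means of 2.92 and 3.94 CPM, where the others were at 2239 CPM or more. The sum of all 7 lay from 36461 to 48524 CPM in Control and from 19978 to 38870 CPM in *FRAIL1* muscles. *FRAIL1* was below Control in 6 of 6 mice, including mice 1, 3 and 4, in which most nuclear subunits were higher. The Nd sum per nuclear subunit sum was 6.09 ± 0.716 in Control and 4.76 ± 0.962 in *FRAIL1* muscles, and the groups overlapped. All of these libraries were made after poly(A) selection.

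**Figure D4:**
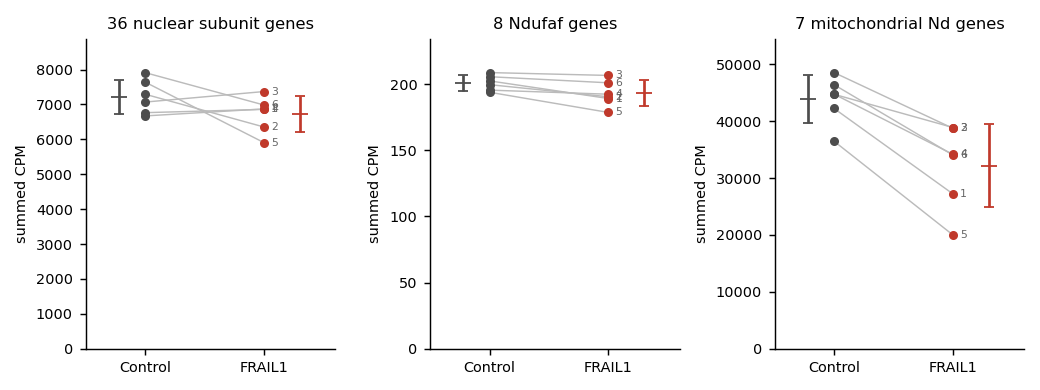
Summed CPM (vertical axes, starting at 0) of the 36 nuclear subunit genes, the 8 Ndufaf genes and the 7 mitochondrial Nd genes in each Control and *FRAIL1* muscle; points are muscles, grey lines join muscles with the same number, and bars give mean ± SD (n = 6). The nuclear sums of the groups overlap, with *FRAIL1* 5 lowest at 5906 CPM, while all 6 lines of the Nd panel descend.

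The regulators whose motifs were searched, with their coactivators, gave no call: of Nrf1, Gabpa, Gabpb1, Yy1, Esrra, Ppargc1a and Ppargc1b, 5 had lower means and 2 higher (median log2 difference -0.09), and none passed in edgeR's quasi-likelihood test with or without the block, or with DESeq2 (2 lower at an unadjusted p under 0.05). For the other respiratory complexes the median log2 differences of nuclear subunits were -0.08 (complex II, 4 genes), -0.04 (complex III, 8 genes), -0.16 (complex IV, 11 genes) and -0.05 (ATP synthase, 15 genes), also without a call in edgeR with or without the block. At an unadjusted p under 0.05, 1 gene of complex III and 5 of complex IV were lower, and 1 of complex IV passed with DESeq2. Mouse by mouse, their medians were below 0 in mice 2, 5 and 6 for all 4 complexes, and at most 0.13 above 0 in the others, with complex II below 0 in mice 1 and 3.

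Markers of other cells and of fiber state differed between the same muscles, and their part in the Nduf values was not tested. All 6 genes of regenerating or denervated fibers (Myh3, Myh8, Chrng, Chrna1, Myog and Ncam1) rose, with adjusted p of 0.0227 or below in edgeR's quasi-likelihood test, and their sum went from 175 to 230.04 CPM in Control to 380.3 to 1673 CPM in *FRAIL1* muscles, with *FRAIL1* 5 highest. Of 8 myofiber genes 1 fell in that test (Ckm) and 4 passed with DESeq2, and the sum was 140324 to 167529 CPM against 110168 to 149933 CPM, with *FRAIL1* 5 lowest. Of 6 fibroblast genes 1 rose (Postn) and 4 passed with DESeq2, with sums of 965 to 1806 against 1923 to 5259 CPM. The highest sum was that of *FRAIL1* 5, the other *FRAIL1* muscles reached at most 2445 CPM, and without *FRAIL1* 5 the median log2 difference of the list went from 0.79 to 0.50. Of 6 macrophage genes none passed in edgeR (5 higher at an unadjusted p under 0.05) and 4 passed with DESeq2, with sums of 149 to 229 against 182 to 534 CPM. Of 6 endothelial genes 1 fell (Vwf) and 2 passed with DESeq2, with sums of 400.1 to 472 against 332 to 420 CPM. In edgeR no gene passed among 6 of pericytes and smooth muscle (225 to 331 against 236 to 285 CPM), 6 of Schwann cells (82.4 to 146 against 69.2 to 107 CPM), 4 fiber-type myosins (56313 to 64362 against 41160 to 57441 CPM) or 3 tested of adipocytes (2.03 to 12.8 against 2.41 to 3.75 CPM). With DESeq2 1 gene passed in each of these lists but the last, and at an unadjusted p under 0.05 there were 2 lower and 1 higher, 1 lower, 1 lower and 1 lower. With the mouse as a block 3 macrophage genes (Lyz2, Adgre1 and Csf1r) rose, 3 myofiber genes (Myh4, also on the myosin list, Actn3 and Ckm), 2 endothelial genes (Kdr and Vwf) and 2 pericyte genes (Rgs5 and Kcnj8) fell, and no fibroblast gene passed. No marker was at 0 in every muscle.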

How the data were processed

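RNA-seq counts of 12 TA muscles, 6 Control and 6 *FRAIL1*, were analysed. Per the labels, the authors trimmed reads with Trimmomatic, mapped them to mm10 with STAR 2.7.8a and counted them with featureCounts 2.0.1. The deposited values are whole-number counts per gene without normalization. The strand setting is not given in the sources used here. Of 27179 Gene IDs, 25275 matched a symbol in RefSeq (GRCm38.p6), and the others held 0.280% of counts.

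After filterByExpr, 15502 genes were left to test. TMM factors set the library sizes, and edgeR 4.0.16 (R 4.3.3) gave robust quasi-likelihood tests without a block, with Benjamini-Hochberg adjustment over all genes tested and a threshold of 0.05. Intervals are 95% intervals from the test's SE and degrees of freedom. P-values measure the spread between these muscles. On simulated counts modelled on this comparison (15542 genes tested), 73% of changes of 1 and 36% of changes of 0.5 on the log2 scale were recovered, with 6 false calls among 115, and 0 calls were made where nothing was changed. The changed genes were drawn from all genes tested, and genes were simulated independently, without a mouse effect. Changes smaller than 0.5 were not simulated, so these shares do not give the recovery for differences of the size seen in Nduf genes. Within a group no library was a copy of another (chi-square per degree of freedom 15.4 or more). Per the study's methods the groups are opposite legs of 6 mice, so the number was used as a mouse block in an alternative. Same-numbered muscles correlated by 0.200 on average in their deviations from the group means (number 5: 0.0547) and others by -0.0400. DESeq2 1.42.0 and limma voom 3.58.1 were run as alternatives, as were other scalings and filters and fits that left out each muscle in turn or both muscles numbered 5.

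The members, lists, motifs and alternatives were chosen with earlier results of these data known. Named in full are the core subunits, 1 of which is not reported here, every Ndufaf gene, Ndufv3, Ndufa4, Ndufa4l2, any gene past the threshold with or without the block, and the 4 accessory subunits with the highest and the 4 with the lowest fold changes. Genes named besides these, among them Ndufs4, Ndufs6, Ndufab1, Ndufb4b and Ndufb4c, were picked after their values were seen. Copies were searched with BLAST 2.17.0 in GENCODE transcripts. Transcript lengths are those of principal coding transcripts. Promoter windows are from RefSeq.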

Additional observations from a re-analysis of the deposited data

Results flagged for a closer look

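In 3 of 56 groups of 6 muscles, over the 26 named genes and the subunit and assembly factor sums, 1 muscle lay far from the other 5 (its gap to the next, over the range of the group, above the critical value of Dixon's test), where chance gives about 1 in 20. Ndufa8 was at 20.5 CPM in Control 6, with the next muscle at 15.9. Ndufb3 was at 146 CPM in the same muscle, with the next at 121. Ndufaf3 was at 14.2 CPM in Control 5, with the next at 12.2.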

How the results depend on the processing

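The median log2 fold change stayed below 0 under all 23 alternatives, between -0.05 and -0.12 for the subunits and between -0.03 and -0.10 for the assembly factors. It moved by less than the SD between mice. That SD, 0.19 for subunits and 0.08 for assembly factors, exceeded the size of the reported medians of -0.10 and -0.07, so this limit is wide. Leaving out 1 muscle gave -0.07 to -0.12 for the subunits and -0.04 (without *FRAIL1* 2) to -0.10 for the assembly factors.

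The number of Nduf genes lower was 0, and it was 1 with the replicate block (Ndufaf5), 1 with DESeq2 (Ndufa4), 2 with DESeq2 and the replicate block (Ndufaf5 and Ndufb4c), 1 with the block and without both muscles numbered 5 (Ndufaf5), and 0 to 2 with 1 muscle left out (2 without *FRAIL1* 3, Ndufa4 and Ndufaf5). No alternative made a Nduf gene higher. Over all genes, 974 calls became 2186 with the block, 2232 with DESeq2, 2898 with DESeq2 and the block, 1756 with limma voom, 2305 with the block and without both muscles numbered 5, and 364 (without *FRAIL1* 1) to 2110 (without *FRAIL1* 3) with 1 muscle left out. The cause was not tested. With DESeq2 the block also removed the call of Ndufa4 (adjusted p = 0.0391 without it and 0.0511 with it), and in edgeR and DESeq2 it changed no further Nduf call.

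Of 598 values of 26 named genes, 6 passed the threshold where the reported value did not, and 18, in 4 genes near 0, changed sign. Ndufs3 was 0.000301 with limma voom, 0.0043 without both muscles numbered 5 (0.0042 with the block) and -0.042 to 0.016 with 1 muscle left out. Ndufc2 was 0.0045, 0.018 (0.018 with the block) and -0.054 to 0.011 in the same fits. With 1 muscle left out, Ndufb10 was -0.031 to 0.046 and Ndufa4l2 -0.021 to 0.12. Counting error (1 over the square root of the mean count) was over 0.5 of the lower group CV between muscles for 5 of 48 genes, Ndufb4, Ndufb4b, Ndufaf2, Ndufaf3 and Ndufaf7. For Ndufaf2 (469 to 706 counts per muscle) it was 4.17%, against a CV of 3.42% in *FRAIL1* and 8.08% in Control muscles.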

Other observations

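Ndufaf2 and Ndufa12 are paralogs that occupy the same place in the complex, before and after the N module is added. The comparison was chosen after their values were seen and was not tested. In Control muscles 1 to 6, log2 CPM of Ndufaf2 minus that of Ndufa12 was -2.99, -3.04, -2.87, -2.75, -3.03 and -3.28. In *FRAIL1* muscles 1 to 6 it was -2.65, -2.60, -2.76, -2.65, -2.42 and -2.63. The difference was thus smaller in the *FRAIL1* muscle of 6 of 6 mice, with means of -2.99 ± 0.18 and -2.62 ± 0.11, and the groups overlapped by a narrow margin, since the highest Control muscle was at -2.75 and the lowest *FRAIL1* muscle at -2.76. Both genes share sequence with other transcripts, Ndufa12 with Gm15920 and Ndufaf2 with an antisense transcript.

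Of the 11 tested genes that start on the opposite strand next to a Nduf gene, 5 had a difference of the same sign as that gene. The signs are those of the fit with all 12 muscles. The pairs given here were chosen after their values were seen, and no difference within a pair was tested. Asb15, 618 bases from Ndufa5, differed by -0.42 on the log2 scale (edgeR adjusted p = 0.180) where Ndufa5 differed by -0.12. Mrpl47, 308 bases from Ndufb5, differed by -0.07 (edgeR adjusted p = 0.426) where Ndufb5 differed by -0.16 (-0.11 without both muscles numbered 5). Rps28, a ribosomal protein gene whose start is 10 bases from that of Ndufa7, differed by 0.33 on the log2 scale (edgeR adjusted p = 0.0820) where Ndufa7 differed by -0.05. Without both muscles numbered 5 the difference of Ndufa7 changed sign, to 0.03. Ercc8, a DNA repair gene 113 bases from Ndufaf2, differed by -0.28 (edgeR adjusted p = 0.108) where Ndufaf2 differed by 0.16. Esf1, 88 bases from Ndufaf5, differed by less than 0.01 (edgeR adjusted p = 0.972) where Ndufaf5 differed by -0.22.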
